A study of Mus musculus with 12 samples.

Results

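Early transposons (ETn) and their relatives, the MusD elements, were read as 5 repeat classes, namely MMETn-int, ETnERV-int, ETnERV2-int, ETnERV3-int and RLTRETN_Mm. These are all the classes whose name contains ETn in any letter case, out of 1217 classes in the table, and all 5 passed the filter on low values that left 939 classes for testing. ETn elements are ERVs of mice that carry no intact retroviral genes, and MusD elements are their coding relatives, whose proteins can mobilise ETn copies in trans. Both belong to the ERVK group, are transcribed in early embryos and embryonic stem cells (ESCs), and are a well-known source of insertional mutations in laboratory mice. In ESCs the histone methyltransferase SETDB1 deposits H3K9me3 at such elements, recruited through the co-repressor KAP1 (TRIM28), whereas TET2 oxidises 5-methylcytosine in DNA. In the class names, int marks the internal part of an element, and RLTRETN_Mm is the class of long terminal repeats (LTRs), the direct repeats at both ends that hold the promoter.

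The data came from 12 libraries of poly(A) RNA from feeder-free mouse ESCs, 3 in each of 4 groups. All cells were of the Tet2 KO line, stably carried a construct for either TET2 WT or TET2 Mut, the catalytic mutant, and were infected with a lentivirus for shSetdb1 and selected with puromycin. Each rescue was grown in 2i (naïve ESCs) and in serum with LIF (primed ESCs), which gave naïve WT, naïve mutant, primed WT and primed mutant groups. The KO was made by disrupting 1 exon of Tet2 with a floxed cassette, the constructs were integrated with PiggyBac, and control shRNA libraries were not used here, which leaves the response to SETDB1 depletion itself unmeasured. Whether libraries of a group came from separate infections was not given in the sources used here, and p-values then measure only the spread between these libraries.

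The deposited expression values are variance-stabilised read counts on a log2 scale, and they could be turned back into whole reads for 100% of the values. Repeat totals were 3156928 to 13718028 reads per library, of which ETn and MusD classes took 46405 to 218218 reads. Tet2 RNA was lower in the mutant than in the WT rescue, by 2.16 in naïve and 1.84 in primed ESCs on the log2 scale (limma, adjusted p = 0.0154 and 0.0297, which rose to at most 0.132 and 0.151 when single libraries were left out). For the protein, the study reported similar amounts in the WT and mutant rescue lines by Western blot. Whether the difference in Tet2 RNA bears on the comparisons between rescue lines was not tested. Setdb1 was still read in every library, with 114 to 585 reads. Markers of ESCs were high (Pou5f1 at 13.07 or above and Nanog at 13.48 or above in all libraries), and of 3 fibroblast markers Col1a2 was at 0 reads in every library, Col1a1 at 1 to 10 reads and Thy1 at 8 to 15 reads in primed and 26 to 100 reads in naïve libraries. Cdx2 and Gata6 stayed at 16 reads or fewer and 21 reads or fewer. A pair of libraries stood apart from the rest of their groups in measures that use no comparison of groups. Leaving them out was an alternative chosen after the data were seen. A ribosomal RNA class, SSU-rRNA_Hsa, took 20.0% of the repeat reads in naïve WT replicate 3 and 27.4% in primed mutant replicate 3, against 40.7% or more in the others. The median repeat class lay 0.42 and 0.50 above its mean over all libraries in these 2. It also lay above that mean in replicate 3 of the naïve mutant group (0.28) and of the primed WT group (0.19). In all other libraries it lay below that mean. Results that change without the 2 libraries that stood apart are given both ways.

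To show what was being read, the primer pair that the study used for ETn/MusD in expression and chromatin assays was matched to mm9. Both primers lie in one short stretch, and they are given here because they define the elements as measured outside of RNA-seq.
Forward primer: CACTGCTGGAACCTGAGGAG
Reverse primer: CGACTGAGAAGGCCGCTC
In the chromosomes searched, the forward primer had 295 exact matches and the reverse primer 137. The pair bracketed 77 stretches without a mismatch. Copies with a mismatch in a primer were not searched for, so the likeness between copies given below holds for exact matches only. Of these, 44 were 207 bases long and 30 were 209 bases long. The 77 copies held 35 distinct sequences.

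A copy of each length is shown, with capitals marking the sites of the primers, because the middle part is where the forms differ. The shorter form lies at chr14:8920774-8920980 on the minus strand of mm9, in an intron of Rpp14 (a subunit gene of ribonuclease P) and on the opposite strand to that gene. The longer form lies at chr10:24579677-24579885 on the plus strand, between annotated genes. Each of the sequences was present in 7 copies. A different sequence of 207 bases was more frequent, with 16 copies, and is not shown.
Form of 207 bases: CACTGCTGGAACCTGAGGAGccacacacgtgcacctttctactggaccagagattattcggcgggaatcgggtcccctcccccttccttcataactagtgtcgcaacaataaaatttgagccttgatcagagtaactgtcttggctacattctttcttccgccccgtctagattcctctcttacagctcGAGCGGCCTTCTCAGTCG
Form of 209 bases: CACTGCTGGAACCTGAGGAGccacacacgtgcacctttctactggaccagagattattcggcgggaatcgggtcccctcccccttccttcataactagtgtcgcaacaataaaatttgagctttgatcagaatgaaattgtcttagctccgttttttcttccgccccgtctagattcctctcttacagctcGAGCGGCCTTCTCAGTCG
The 2 copies shown differed by 7 substitutions and 2 gap bases, an identity of 95.7%. They held 10 and 11 CpG sites. Among all distinct copies kept, identity was 95.7% to 99.5% within the shorter form and 95.2% to 99.5% within the longer form. Between the forms it was 90.9% to 96.2%, with a median of 93.8%, so the copies shown were more alike than most.

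The stretches recurred in pairs on 1 strand, as the LTRs at both ends of an element do, with 29 pairs less than 12000 bases apart. In 17 pairs the sequences were identical. Both stretches were of the shorter form in 10 of 12 pairs that were 5000 to 5500 bases apart and in 5 of 6 that were 6500 to 6900 bases apart. Both were of the longer form in 8 of 10 pairs that were 6900 to 7500 bases apart. Every stretch held the letters AATAAA on its own strand, the hexamer of the polyadenylation signal, which 8.90% of RefSeq promoters (build GRCm38.p6) held on their own strand in a window of 207 bases (15.8% on either strand). The stretches are near copies of each other, picked by the same primers, so they are not independent sequences to set beside the promoters. Of the 77 stretches, 67 lay between annotated genes, 9 in introns and 1 in an exon, and of the 10 within genes 8 were on the opposite strand to the gene. None of the 10 was of the longer form. The 6 genes that held them were Tex21, Adarb2, Rpp14, Sntb1, Slc4a4 and Kbtbd12. Of the 5 that were tested, none was called between rescue lines in naïve ESCs (0.0987% of all genes were) or in primed ESCs (0.254%). Between media, 0 were called in the WT line (35.9% of all genes were) and 1 in the mutant line (35.2%). The called gene was Sntb1, which encodes a syntrophin, at 0.98 lower in naïve ESCs (limma, adjusted p = 0.0369). In the WT line Sntb1 was at -0.72 (limma, adjusted p = 0.118). RepeatMasker positions were not used here, so the stretches were not assigned to any of the 5 classes.

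Of the ETn and MusD reads, most were from MMETn-int, at 59.9% to 69.3% of a library's ETn/MusD reads. ETnERV2-int took 18.6% to 26.0%, and RLTRETN_Mm 6.31% to 13.2%. ETnERV-int took 2.36% to 3.25%, and ETnERV3-int 0.269% to 1.73%. This order was the same in every library, but it sums all copies of a class and takes no account of their length, so it is not an order of expression per copy. MMETn-int ranked between the 4th and the 9th of all repeat classes by expression value, and ETnERV3-int between the 123rd and the 352nd.

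**Figure D1:**
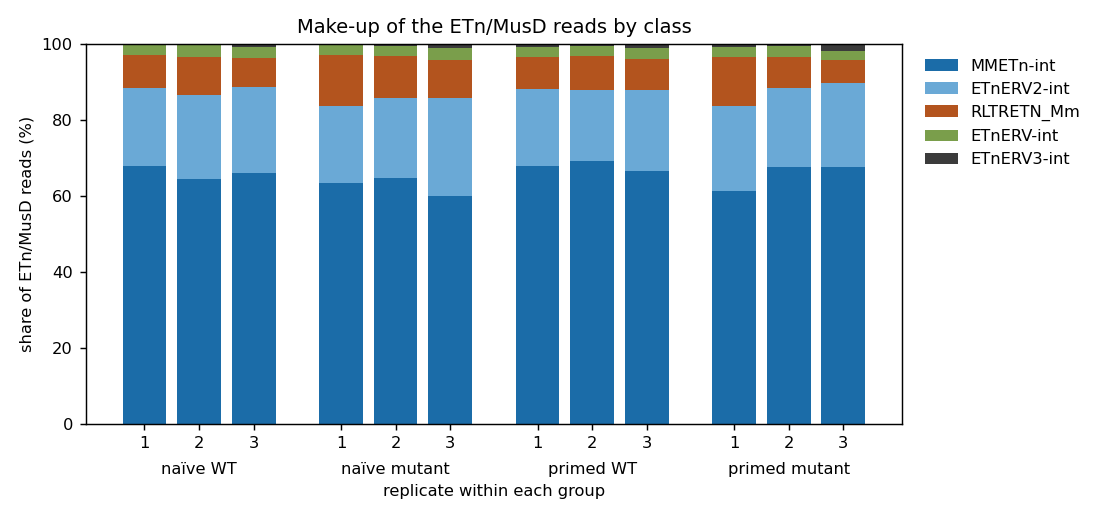
Share of the ETn/MusD reads of a library (vertical axis, %) taken by each of the 5 classes, with 1 bar for each of the 12 libraries, grouped by medium and rescue. MMETn-int takes 59.9% to 69.3% in every bar, and ETnERV3-int at the top takes at most 1.73%.

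MMETn-int, the most abundant class, was expressed at 16.46, 15.54 and 16.60 in the naïve WT libraries (replicates 1 to 3) and at 15.70, 15.56 and 15.46 in the naïve mutant libraries, on the log2 scale. Primed WT libraries were at 16.06, 16.37 and 16.40, and primed mutant libraries at 15.03, 16.01 and 16.76. The naïve mutant libraries sat close together, whereas the primed mutant libraries spanned more than any other group, and the groups overlapped in every comparison. The WT rescue exceeded the mutant by 0.62 in naïve ESCs (95% interval -0.13 to 1.38) and by 0.34 in primed ESCs (-0.41 to 1.10), and neither difference passed the test (limma, adjusted p = 0.999 and 0.996).

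ETnERV2-int, the second most abundant class, was at 14.73, 13.99 and 15.07 in naïve WT and at 14.06, 13.95 and 14.26 in naïve mutant libraries. In primed ESCs it was at 14.31, 14.47 and 14.77 with WT and at 13.59, 14.32 and 15.14 with mutant TET2. The highest value of each group came from replicate 3, but relative to the median class of each library this held in 1 of 4 groups. Differences between rescue lines were 0.51 in naïve (95% interval -0.20 to 1.21) and 0.17 in primed ESCs (-0.54 to 0.87), with adjusted p = 0.999 and 0.996 (limma).

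ETnERV-int followed the same libraries at a lower level, at 11.77, 11.08 and 12.15 in naïve WT and 11.11, 10.94 and 11.27 in naïve mutant ESCs. Its primed values were 11.43, 11.61 and 11.90 with WT and 10.50, 11.38 and 11.92 with mutant TET2. In naïve ESCs the WT library was the higher one in all 3 pairs of the same replicate number, by 0.13 to 0.88. The mean difference of 0.56 (95% interval -0.12 to 1.24) did not pass the test (limma, adjusted p = 0.999), nor did that of 0.38 in primed ESCs (-0.30 to 1.06, adjusted p = 0.996).

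RLTRETN_Mm, the LTR class, varied least, over a range of 0.74 across all 12 libraries against 1.55 to 3.24 for the internal classes. It was at 13.51, 12.89 and 13.49 in naïve WT and 13.44, 13.02 and 12.88 in naïve mutant ESCs, and at 13.06, 13.43 and 13.34 in primed WT and 12.77, 12.97 and 13.34 in primed mutant ESCs. The differences between rescue lines were 0.19 in naïve (95% interval -0.38 to 0.75) and 0.25 in primed ESCs (-0.32 to 0.82), and the groups overlapped.

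ETnERV3-int, the class with the fewest reads, varied most. Naïve WT libraries were at 8.52, 8.24 and 10.18 and naïve mutant libraries at 8.43, 8.66 and 9.50, whereas primed WT libraries were at 9.46, 9.58 and 10.52 and primed mutant libraries at 8.81, 9.23 and 11.48. Replicate 3 was the highest of its group in all 4 groups, and the replicate number took 63.3% of the sum of squares over the 12 libraries against 25.2% for the group. Between rescue lines it differed by 0.12 in naïve (95% interval -0.99 to 1.22) and 0.01 in primed ESCs (-1.09 to 1.12).

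**Figure D2:**
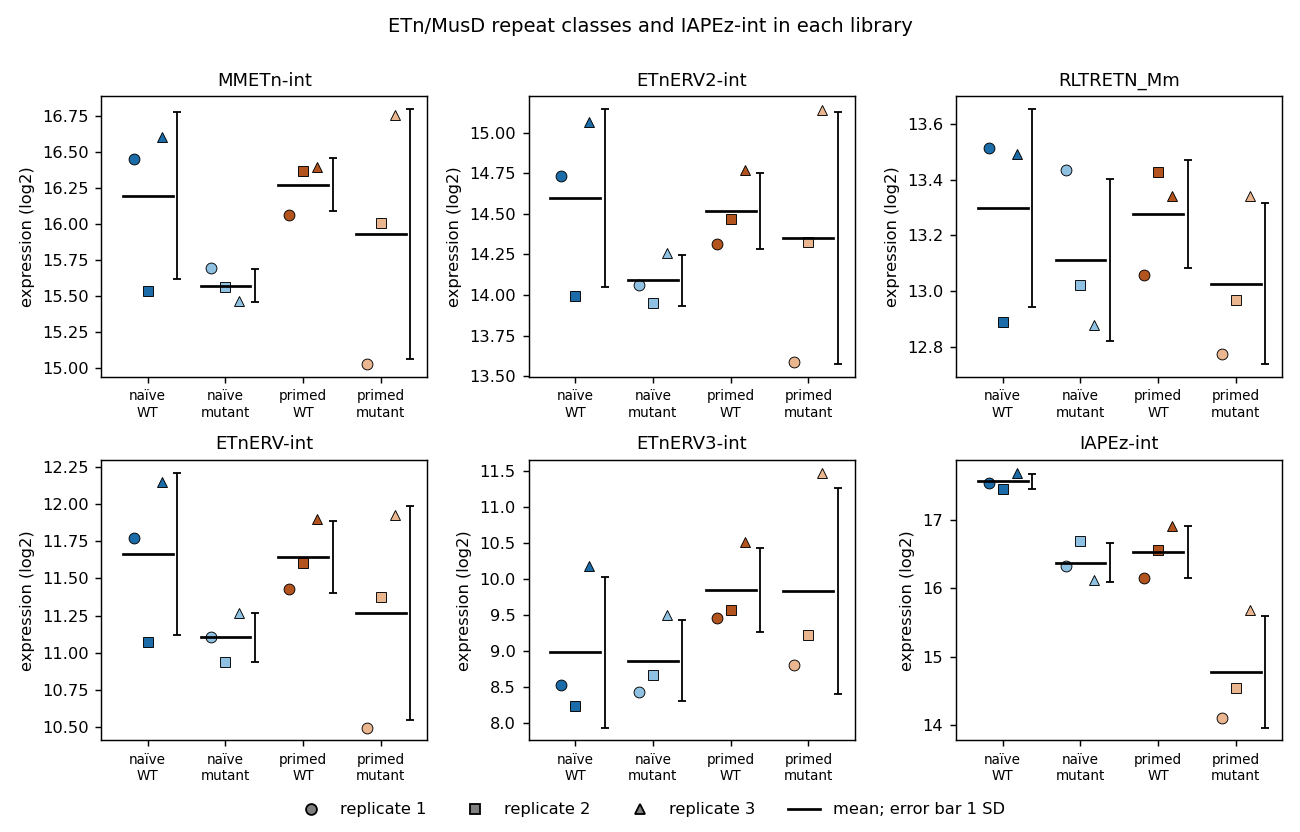
Expression of the 5 ETn/MusD classes and of IAPEz-int (vertical axes, deposited log2 values, each panel with its own range) in the 12 libraries, with the replicate number given by the symbol, the group mean by a line and 1 SD by the error bar. The groups overlap in all panels of ETn/MusD classes, and replicate 3 of the primed mutant group sits far above its replicate 1 in each of the internal classes.

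None of the 5 classes was called between WT and mutant TET2 in naïve ESCs, where calls (adjusted p under 0.05 with a difference over 1) made up 0% of the 939 classes (limma). At an unadjusted p under 0.05, 17 of the 939 classes and 0 of the 5 passed, and limma-voom on the recovered reads called 0 classes. In primed ESCs 0 of the 5 were called, against 0.319% of all classes, and again 0 of the 5 passed an unadjusted p under 0.05. The median difference of the 5 classes was 0.51 in naïve ESCs, where that of all tested classes was 0.06, and 0.25 in primed ESCs, where it was -0.06. WT TET2 libraries had the higher mean for all 5 in either medium, as they had for 59.7% and 39.2% of all classes, but they share libraries and are not independent of each other. When the value of a class was taken relative to the median class of its library, the 5 remained higher with WT TET2, with medians of 0.41 and 0.24. Groups that did not overlap were found for 0 of the 5 in either medium, against 5.22% of all classes in naïve and 3.41% in primed ESCs.

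The primed difference depended on which mutant libraries were used. Without primed mutant replicate 3, the library that stood apart, WT exceeded mutant by 0.76 for MMETn-int, 0.71 for ETnERV-int, 0.56 for ETnERV2-int, 0.41 for RLTRETN_Mm and 0.83 for ETnERV3-int. Without primed mutant replicate 1, in which 4 of the 5 classes had their lowest value of the 12 libraries, 4 of the differences lay below 0, from -0.50 for ETnERV3-int to -0.0038 for ETnERV-int, and RLTRETN_Mm was at 0.12. With both libraries that stood apart left out, 4 of the 5 classes passed an unadjusted p under 0.05 in primed ESCs and none was called. In that setting 61 of the 939 classes passed the same limit, 78.6% of all classes were higher with WT TET2, and the median over all classes was 0.18 against 0.71 for the 5. The test of the difference between media gave 0 calls among all 939 classes (0%), and 4 at an unadjusted p under 0.05. Among the 5 it gave values between -0.06 and 0.34, with adjusted p = 0.998 for each (limma).

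Over both media, with rescue labels exchanged within a medium, exact two-sided permutation tests of the WT minus mutant difference gave p = 0.135 for MMETn-int, 0.245 for ETnERV2-int, 0.11 for ETnERV-int, 0.16 for RLTRETN_Mm and 0.905 for ETnERV3-int, unadjusted over 5 comparisons. Relative to the median class of each library, the same exact permutation test gave p = 0.085, 0.125, 0.01, 0.32 and 0.975 in this order, so that the outcome for ETnERV-int (0.47 as deposited and 0.42 relative to the median class) depended on the scale. The smallest p this test can give is 0.005. As a share of the ETn/MusD reads, which does not depend on the size factors, MMETn-int was higher in the WT lines, by 3.40 percentage points in naïve ESCs (66.0% ± 1.69 against 62.6% ± 2.47, SD, n = 3) and by 2.42 in primed ESCs (67.9% ± 1.41 against 65.4% ± 3.65). The exact permutation test over both media gave p = 0.05. For the other 4 classes the same permutation test of the share gave p = 0.21 to 0.53.

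IAPEz-int, the internal class of the intracisternal A particles (IAPs), an ERVK group under SETDB1 control, was taken as a comparator with its own response known. It was higher with WT than with mutant TET2 by 1.18 in naïve (95% interval 0.46 to 1.90) and by 1.76 in primed ESCs (1.04 to 2.48), and in each medium the groups did not overlap. With limma the adjusted p was 0.773 in naïve and 0.0133 in primed ESCs. The naïve value depended on the fit, since a replicate block gave adjusted p = 0.00654 for the same difference and leaving out the 2 libraries that stood apart gave 1.12 (adjusted p = 0.00977). The primed call was lost when any of 4 single libraries was left out, with adjusted p up to 0.196, and was kept without the 2 libraries (2.21, adjusted p = 2.3e-09). MMERVK10C-int, another ERVK class, differed by 0.55 and 0.11, within the range of the ETn/MusD classes. Reads of IAPEz-int divided by those of a class within a library cancel the size factors. In primed ESCs the log2 ratio to MMETn-int was 0.09, 0.19 and 0.51 with WT TET2 and -0.92, -1.47 and -1.08 with mutant TET2, so that IAPEz-int reads outnumbered MMETn-int reads in the first group and fell short of them in the second. In naïve ESCs the ratio was 1.08, 1.92 and 1.08 with WT and 0.62, 1.13 and 0.65 with mutant TET2, and the groups overlapped.

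Over both media the ratio was higher with WT TET2 by 0.99 for MMETn-int, 1.00 for ETnERV-int, 1.14 for ETnERV2-int, 1.25 for RLTRETN_Mm and 1.40 for ETnERV3-int. Exact permutation tests within media gave p = 0.005 for RLTRETN_Mm, 0.01 for ETnERV-int and ETnERV2-int, and 0.015 for MMETn-int and ETnERV3-int, unadjusted over 5 comparisons. In primed ESCs the groups did not overlap for any of the 5 ratios, which gave p = 0.1 by exact permutation, the smallest p that 3 libraries against 3 allow. In naïve ESCs they did not overlap for 1 of the 5, with exact permutation p = 0.1 to 0.3. Since IAPEz-int had been picked for its difference, these p-values are no independent evidence of it. The 5 ratios share IAPEz-int, whose own groups did not overlap in either medium. Its ratios to repeat classes outside the 5 were not computed, so the counts without overlap have no share over all classes beside them. The WT minus mutant difference of the ratio, naïve less primed, was -0.92 to -0.51 (exact permutation p = 0.305 to 0.585). That test exchanged rescue labels within media, so rescue differences present in both media widen its null. It therefore cannot decide whether the gap to IAPEz-int differed between media.

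**Figure D3:**
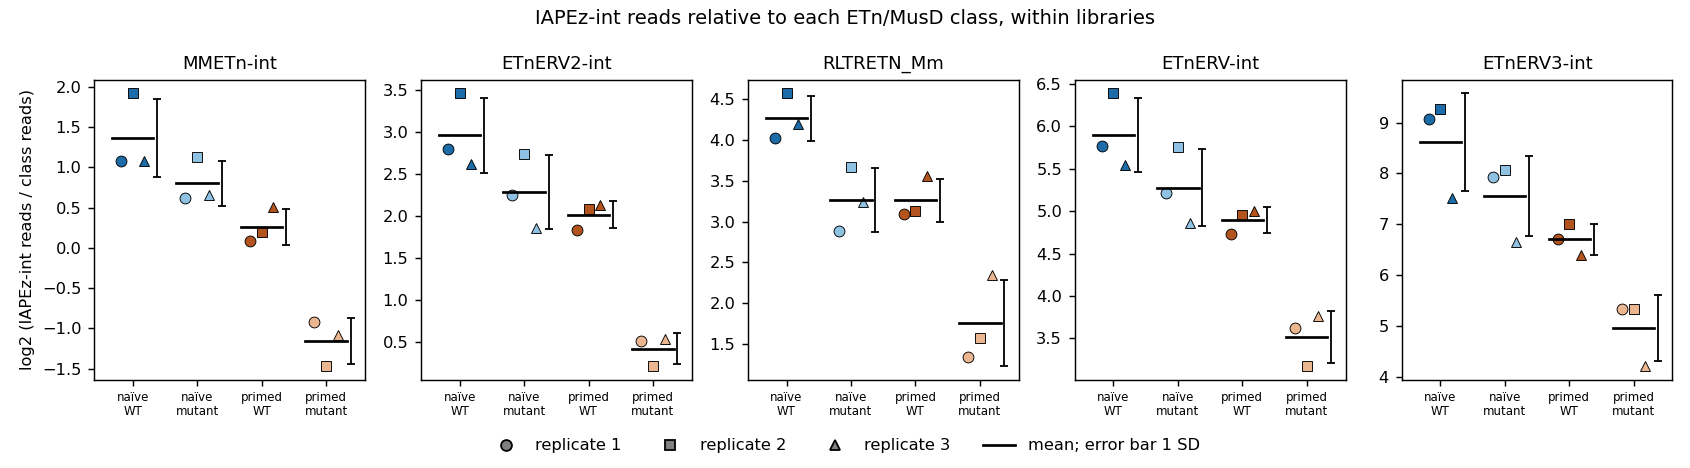
Log2 ratio of IAPEz-int reads to the reads of each ETn/MusD class within a library (vertical axes, each panel with its own range) in the 12 libraries, with the group mean as a line and 1 SD as the error bar. In each panel the 3 primed mutant libraries lie below the 3 primed WT libraries, and for MMETn-int they lie below 0.

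Between media, the abundant classes differed little. MMETn-int was -0.08 in naïve relative to primed ESCs with WT TET2 (95% interval -0.83 to 0.68) and -0.36 with mutant TET2 (-1.11 to 0.40). ETnERV2-int was at 0.08 and -0.26, ETnERV-int at 0.02 and -0.16, and RLTRETN_Mm at 0.02 and 0.09, with intervals that reached at most 1.0 from 0 (limma, adjusted p = 0.973 or more for each of these classes with WT and 0.979 or more with mutant TET2). The signs of these small values are not firm. With WT TET2, centring on the library median put ETnERV-int at -0.07, ETnERV2-int at -0.01 and RLTRETN_Mm at -0.07. With mutant TET2, leaving out primed mutant replicate 3 put MMETn-int at 0.05. These comparisons use the same libraries as those between rescue lines.

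ETnERV3-int, in contrast, was lower in naïve than in primed ESCs in all 3 pairs of the same replicate number with WT TET2, by between 0.34 and 1.34, and in all 3 with mutant TET2, by between 0.37 and 1.98. The mean differences of -0.87 with WT (95% interval -1.98 to 0.23) and -0.97 with mutant TET2 (-2.08 to 0.13) did not pass the test (limma, adjusted p = 0.688 and 0.636). A replicate block in the fit gave the same differences adjusted p = 0.0235 and 0.0101, but they stayed under the difference of 1 that a call required. The average over both lines, -0.92, had adjusted p = 0.175 without the block, and the exact permutation test within lines gave p = 0.115. Relative to the median class of each library the average was -0.97, with adjusted p = 0.0442 (limma) and exact permutation p = 0.035, and without the 2 libraries that stood apart it was -0.81 (adjusted p = 0.00298). Without naïve WT replicate 3 and primed mutant replicate 3, the difference was -1.47 with WT TET2, which was then called (adjusted p = 0.000353), and -0.15 with mutant TET2 (adjusted p = 0.813). Thus the WT difference grew and the mutant difference shrank when these 2 libraries were left out.

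**Figure D4:**
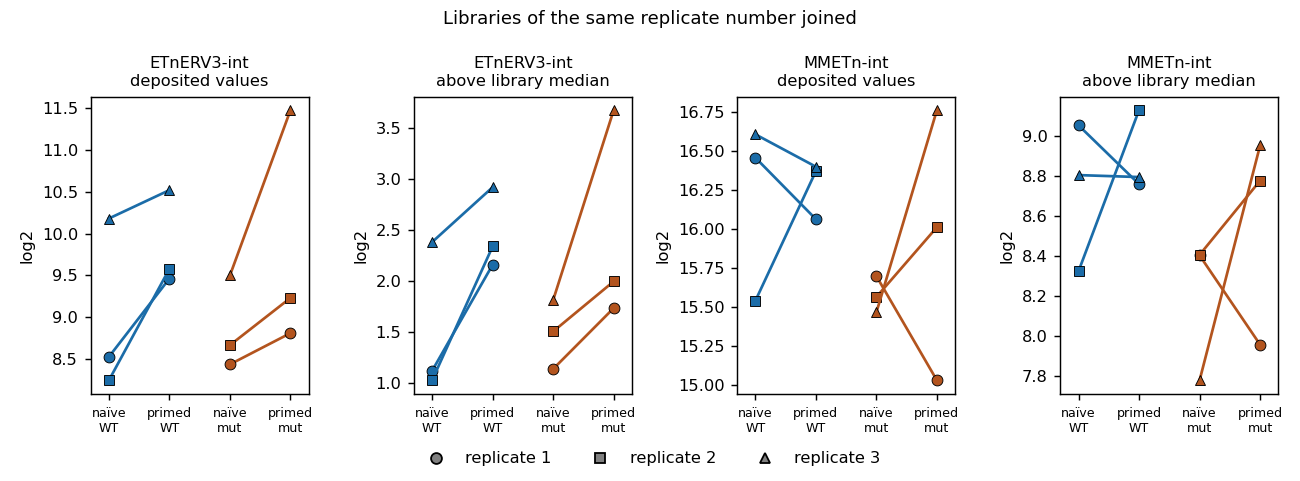
Expression of ETnERV3-int and MMETn-int (vertical axes, log2) in naïve and primed ESCs of the WT line (blue) and the mutant line (brown), with libraries of the same replicate number joined. Values are shown as deposited and relative to the median tested class of the library. All 6 lines of ETnERV3-int rise from naïve to primed on both scales, whereas the lines of MMETn-int run in both directions.

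No ETn/MusD class was called between media in the fit without a block (0 of 5 in each line), where 2.34% of all classes were called with WT and 3.41% with mutant TET2 (limma), and 0 of the 5 passed an unadjusted p under 0.05 in either line. The same was found with limma-voom on the recovered reads. Groups without overlap were likewise found for 0 of the 5, against 14.4% and 11.4% of all classes. As a share of ETn/MusD reads, ETnERV3-int was lower in naïve ESCs by 0.33 percentage points in the WT line and 0.42 in the mutant line (p = 0.095 by exact permutation within lines). Its share was lowest in naïve WT replicate 1, at 0.269% (95% Wilson interval 0.238% to 0.303%), and highest in primed mutant replicate 3, at 1.73% (1.66% to 1.81%). Relative to ETnERV-int reads of the same library, ETnERV3-int was 0.87 lower in naïve ESCs (exact permutation p = 0.035), and relative to ETnERV2-int 0.85 lower (p = 0.04). These ratios were chosen after the values were seen, and relative to MMETn-int and RLTRETN_Mm the differences of 0.72 and 0.99 gave exact permutation p = 0.095 and 0.07.

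**Figure D5:**
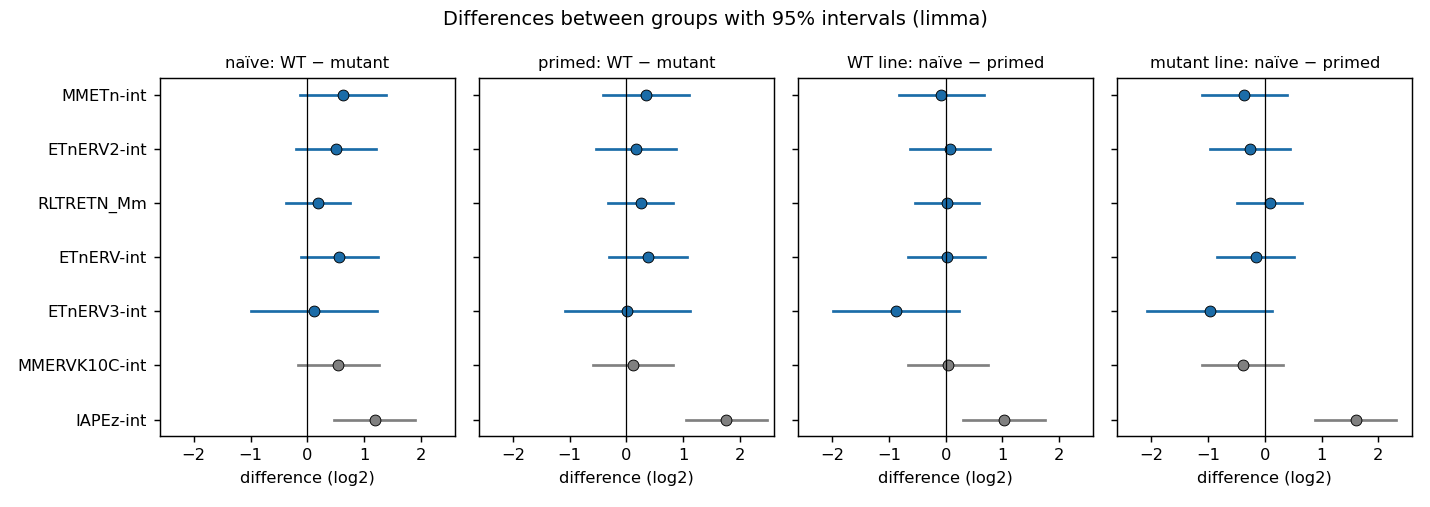
Difference between groups (horizontal axis, log2) for the 5 ETn/MusD classes in blue and the comparators MMERVK10C-int and IAPEz-int in grey, with 95% intervals from limma, for the 4 comparisons. Every interval of an ETn/MusD class includes 0, whereas all 4 intervals of IAPEz-int lie above 0.

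IAPEz-int, by comparison, was higher in naïve than in primed ESCs by 1.02 with WT TET2 (adjusted p = 0.144) and 1.60 with mutant TET2 (limma, adjusted p = 0.00949). With WT TET2 the adjusted p was 0.0272 with the replicate block, 0.0485 relative to the median class and 0.00739 without the 2 libraries that stood apart (0.96), and with mutant TET2 it reached 0.0977 when single libraries were left out. The log2 ratio of IAPEz-int to each of the 5 classes was higher in naïve ESCs by 1.26 to 2.25, and no naïve library overlapped with the primed libraries of its line in any of the 5 ratios. The exact permutation test within lines gave p = 0.005 for each, the smallest p it can give, in 5 comparisons chosen after the values were seen. IAPEz-int on its own also did not overlap between media in either line, with exact permutation p = 0.005 within lines. The 5 ratios share it and are not separate results about the 5 classes. The largest difference was that of the ratio to ETnERV3-int, which of the 5 classes had the lowest average difference between media (-0.92, exact permutation p = 0.115 within lines).

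Across the 12 libraries, the 3 abundant internal classes were most like each other. ETnERV-int had a Pearson correlation of 0.98 with ETnERV2-int and of 0.95 with MMETn-int, and RLTR30 came next at 0.92. For ETnERV2-int the next was RLTR42-int at 0.94, and for MMETn-int it was MamSINE1, an old SINE class, at 0.90. ETnERV3-int correlated at 0.67 to 0.77 with the 3 abundant internal classes and at 0.33 with RLTRETN_Mm. It was most like the LINE-1 classes L1Md_A (0.95), L1MA4A (0.95) and L1Md_F (0.94). RLTRETN_Mm was most like MamRep605 (0.85), MER20B (0.81) and MER34B-int (0.80), with MMETn-int in place 4 at 0.80. With ETnERV-int it was at 0.76 and with ETnERV2-int at 0.72. After the group means were subtracted, ETnERV-int still correlated best with ETnERV2-int (0.99), followed by LTR89 (0.97) and MamSINE1 (0.97). ETnERV3-int then correlated best with ORR1A0-int, RMER16-int and MT2A (0.99 each). With ETnERV-int, ETnERV2-int, MMETn-int and RLTRETN_Mm it was then at 0.86, 0.89, 0.75 and 0.47. In the same way ETnERV2-int was followed by MamSINE1 (0.98) and RLTR12B (0.97), MMETn-int by MADE2 (0.95), and RLTRETN_Mm was closest to MamRep1161 (0.92), MamRep605 (0.88) and L1MA6 (0.87). These correlations are over 12 libraries that share the size factors and the shifts of the median class given above, and the likeness to old repeats was seen for classes that shifted in the same libraries.

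Genes of ERV silencing were read in the same libraries. Of 25 listed genes 24 were tested, and 0 were called between rescue lines in either medium (limma, adjusted p under 0.05), where 0.0987% of all genes were called in naïve and 0.254% in primed ESCs. The median difference of the 24 genes was 0.30 in naïve ESCs, with 20 of them above 0, and 0.15 in primed ESCs, with 15 above 0, where the medians of all genes were 0.0032 and 0.0087. Setdb1 differed by 0.13 in naïve (95% interval -0.40 to 0.66) and 0.16 in primed ESCs (-0.37 to 0.69; adjusted p = 0.857 and 0.788), and Trim28 by 0.28 and 0.14 (adjusted p = 0.511 and 0.742).

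Between media, 10 of the 24 genes were called with WT TET2 (9 lower and 1 higher in naïve ESCs, where 35.9% of all genes were called), and 11 of 24 with mutant TET2 (10 lower and 1 higher, where 35.2% were called). The de novo methyltransferase cofactor Dnmt3l had the largest difference, at -5.18 with WT and -5.17 with mutant TET2 (adjusted p = 6.12e-10 and 8.62e-10). The methyltransferase genes Dnmt3b (-2.21 and -2.45) and Dnmt3a (-0.91 and -1.30) and the co-repressor Trim28 (-0.94 and -1.08) were also lower in naïve ESCs of both lines, as was Smarcad1, a chromatin remodeller (-0.86 and -1.53, with adjusted p = 0.0493 and 0.00201, and up to 0.221 under other settings for the first). Chaf1b, a subunit of the histone chaperone CAF-1, was the gene that was higher (0.88 and 0.75), and it is named here after its values were seen. Setdb1 was at -0.45 and -0.42, which did not pass the test (adjusted p = 0.167 and 0.201). Taken without direction, these counts are close to the share of all genes called between media, but the list leaned to lower values. Of all 14185 genes, 2637 were called higher and 2458 lower in naïve ESCs with WT TET2. With mutant TET2 the counts were 2595 higher and 2398 lower. Whether any of the silencing genes bears on ETn/MusD expression was not tested.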

How the data were processed

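The authors trimmed reads with Trim Galore 0.3.3, aligned them to mm9 with TopHat2 2.0.9, gave multi-mapping reads 1 of their best positions at random, took counts for genes and for RepeatMasker classes, and deposited DESeq2 variance-stabilised log2 values, gene and repeat tables separately. Random placement lets reads move between related ETn/MusD classes, and the libraries kept no strand. All columns were mapped by their labels. The transformation was inverted, and 100% of values were within 0.001 of a whole read. Reads per library were 8066662 to 21335933 for genes. Wilson intervals of shares cover counting error only, and limma intervals the spread between libraries.

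A mean of 1 or more over the lowest value was required, which left 939 classes and 14185 genes. They were tested with limma 3.58.1 (R 4.3.3) in 1 fit of 4 group means with a variance trend and Benjamini-Hochberg adjustment over all of them. Classes were called at adjusted p under 0.05 and a difference over 1, genes at adjusted p under 0.05. The average over media or lines was added later. Single values, shares and ratios were compared by exact two-sided permutation over libraries (Python 3.11.15, scipy 1.17.1). Primers were matched to mm9 with pysam 0.24.0, and sequences aligned with Biopython 1.88. Promoter sequences were from RefSeq. The fit was tested on simulated data. Chromosome 18 was not searched.

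Same-numbered libraries deviated together over repeat classes, with correlations of 0.29 to 0.49 in naïve ESCs and 0.13 to 0.30 between media with WT TET2, but of -0.02 to 0.33 in primed ESCs and 0.05 to 0.20 between media with mutant TET2. The pairing rests on the numbers in the labels, and what a number marks is not given in the sources used here. Members, comparators and gene lists were chosen with earlier results of these data known. The text names all members, both comparators, the 3 most correlated classes of each, Setdb1, Trim28, Tet2, and silencing genes with the largest called differences. Genes holding primer stretches were named after their values were seen.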

Additional observations from a re-analysis of the deposited data

How the results depend on the processing

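No ETn/MusD class was called between rescue lines or media under the other filters, scalings, variance models, with no limit on the difference, or with any single library left out, and the 1 exception came from leaving out the 2 libraries that stood apart, an alternative chosen after seeing the data, which called ETnERV3-int between media with WT TET2. All 5 classes stayed higher with WT TET2 under every scaling in both media. The differences from IAPEz-int stayed on the same side of 0.05 with each library left out and without the 2 libraries (exact permutation p = 0.005 to 0.035 between rescue lines and 0.005 to 0.01 between media). The lower ratio of ETnERV3-int to ETnERV-int and to ETnERV2-int in naïve ESCs reached exact permutation p = 0.08 and 0.085 when naïve mutant replicate 1 was left out. The replicate block changed no ETn/MusD call, but it brought ETnERV3-int under an adjusted p of 0.05 between media in both lines.

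Counts over all classes moved as follows, and the cause was not tested except where fewer libraries entered. Between rescue lines in naïve ESCs the block called 1 class and leaving out the 2 libraries 5, against 0, and in primed ESCs leaving out the 2 libraries called 10, against 3. Between media with WT TET2, calls were 41 with repeat medians of ratios, 42 with limma-voom, 41 with the block, 35 with the 6 libraries alone and 44 without the 2 libraries, against 22, and with mutant TET2 57 without the 2 libraries, against 32. With single libraries left out, calls ranged from 1 to 3 between rescue lines in primed ESCs, from 8 to 23 between media with WT TET2 and from 11 to 45 with mutant TET2.

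Small differences of the 5 classes changed sign in 61 of their alternative values, none of which passed the test. Between media with WT TET2, centring on the library median, gene size factors, repeat medians of ratios, limma-voom and leaving out the 2 libraries gave, in this order, -0.071, -0.15, -0.070, -0.070 and -0.22 for ETnERV-int, -0.012, -0.086, -0.0099, -0.0092 and -0.16 for ETnERV2-int, and -0.069, -0.14, -0.067, -0.070 and -0.075 for RLTRETN_Mm. With mutant TET2, RLTRETN_Mm was at -0.022 with gene size factors, and leaving out the 2 libraries gave 0.17 for ETnERV-int, 0.13 for ETnERV2-int and 0.055 for MMETn-int. Without them the WT minus mutant difference of ETnERV3-int in naïve ESCs was -0.48. The difference between media of that contrast was then -0.39 for ETnERV-int, -0.29 for ETnERV2-int, -0.33 for MMETn-int and -1.32 for ETnERV3-int, and ETnERV3-int was at -0.019 with repeat medians of ratios and at -0.0010 with limma-voom.

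Leaving out single libraries moved the WT minus mutant difference in primed ESCs from -0.0038 to 0.71 for ETnERV-int, -0.21 to 0.56 for ETnERV2-int, -0.50 to 0.83 for ETnERV3-int and -0.11 to 0.76 for MMETn-int, and that of ETnERV3-int in naïve ESCs from -0.48 to 0.49. Its difference between media ranged from -0.15 to 0.56 for ETnERV-int, -0.054 to 0.72 for ETnERV2-int, -0.72 to 0.62 for ETnERV3-int, -0.13 to 0.73 for MMETn-int and -0.22 to 0.14 for RLTRETN_Mm. Between media with WT TET2 the ranges were -0.22 to 0.31 for ETnERV-int, -0.16 to 0.38 for ETnERV2-int, -0.28 to 0.25 for MMETn-int and -0.088 to 0.23 for RLTRETN_Mm, and with mutant TET2 -0.54 to 0.17, -0.64 to 0.13, -0.81 to 0.055 and -0.077 to 0.24 in the same order. ETnERV3-int had 266 reads in its lowest library, and no alternative varied depth.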
